A study of Mus musculus with 10 samples.

Results

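Cortical thymic epithelium is represented here by 7 genes, Psmb11, Prss16, Ctsl, Ly75, Enpep, Il7 and Tbata, which were followed in tuft cells of the thymus and small intestine (SI) and in SI epithelium of the mouse. They were taken from a list of symbols and found through the GENCODE M21 annotation of GRCm38, so they make up 7 of the 43432 gene identifiers counted. Tuft cells are rare chemosensory epithelial cells. Thymic tuft cells (n = 4 libraries) were sorted as DAPI-, CD45-, EPCAM+ and Flare25+ cells, SI tuft cells (n = 3) by the same markers, and SI epithelium (n = 3) as the Flare25- cells of that gate. Every library came from 1 naive male C57BL6 mouse aged 12 weeks and homozygous for Flare25, a reporter allele of the cytokine gene Il25, so the allele is shared by all 3 groups. Thymic tuft sorts yielded 1350 to 1900 cells, SI tuft sorts 35000 to 36000 and SI epithelium sorts 52000 to 57000. Intestinal tissue was treated with DTT and EDTA and thymus with enzymes, so effects of organ, cell release and cell number cannot be told apart.

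The thymic cortex is where immature thymocytes receive Notch and interleukin 7 signals and are positively selected on peptides shown by cortical epithelial cells. Those cells cut peptides with their own proteases: a thymus-specific proteasome subunit for MHC class I, and cathepsin L and a serine protease for class II. The medulla, where tuft cells lie, is populated by epithelial cells that express tissue antigens under Aire and Fezf2.

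Libraries held 38659882 to 73574745 gene counts, so that 3 counts equal 0.0408 to 0.0776 CPM, a gene's counts scaled by the size of its library. Mitochondrial genes took 4.38% to 5.97% of the counts in thymic tuft, 24.1% to 33.5% in SI tuft and 18.6% to 23.7% in SI epithelium libraries. SI epithelium libraries 1, 2 and 3 held 282 thymus-restricted genes at a median of 0.585%, 0.601% and 0.600% of the counts in thymic libraries 3, 2 and 1. In the other direction, 11 intestinal genes stood in thymic libraries 3, 2 and 1 at a median of 0.918%, 0.959% and 0.860% of the counts in those partners. Thymic library 4 gave at most 0.0474% in a fit of all 4 thymic libraries to these SI epithelium libraries. Both gene sets were chosen to be low in SI tuft libraries, and the 11 genes to be low in thymic library 4. Shares held by the SI tuft libraries and by thymic library 4 were therefore not estimated. Counts shared between partners touch the members that are low in 1 tissue and high in the other, and are given beside them below. In these bulk libraries, fewer cells of a type and less RNA per cell cannot be told apart.

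Levels below are CPM on library sizes scaled by TMM, unless another scale is named, and folds are from edgeR. All 7 members passed the filter on low counts. Psmb11 did so through the thymic group alone. It had to differ, so its place among the members higher and separate in the thymic comparisons was set in advance. Against SI tuft cells, 5 members were higher in thymic tuft cells, where 28.5% of the 19281 genes tested were called higher. Enpep was lower (23.1% of genes were), and Ly75 did not pass the test. Against SI epithelium the same members gave 5 higher (28.6% of genes) and 1 lower (22.3%). Libraries of the groups compared were fully separate for 6 of 7 members in each of these comparisons, beside 51.2% and 55.5% of all genes. The members' median log2 fold change was 3.64 against SI tuft cells and 4.75 against SI epithelium, beside 0.12 and 0.15 for all genes. It was the same with Psmb11, at 0 counts in SI epithelium, set to a floor of 3 counts over that group. Both comparisons use the same thymic libraries. Between SI tuft cells and SI epithelium 0 members were higher (10.9% of genes were) and 2 were lower (11.4%), and 4 had groups that did not overlap (51.1% of genes). The members' median there was 0.42, beside -0.10 for all genes.

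**Figure D1:**
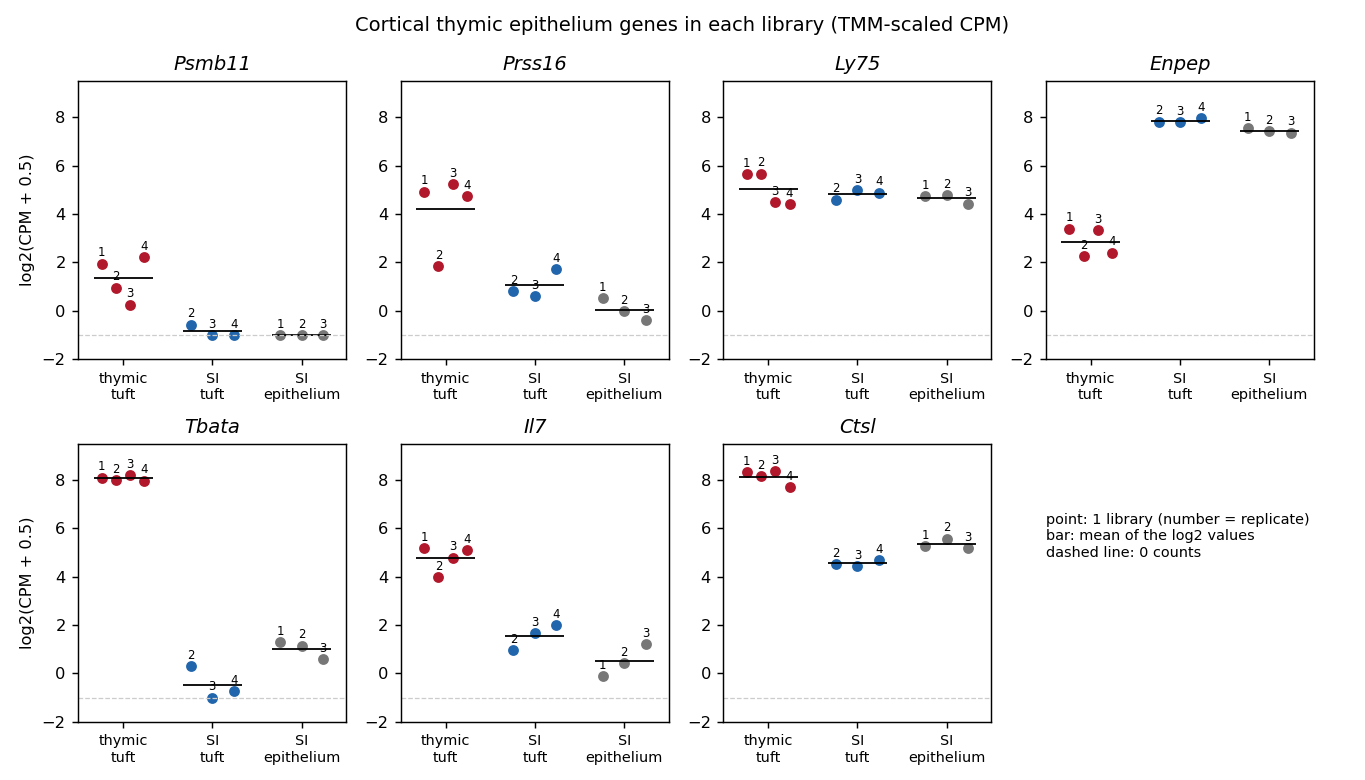
Level of each gene in each library, as log2 of TMM-scaled CPM plus 0.5; a point is 1 library with its replicate number, the bar is the mean of the log2 values and the dashed line is 0 counts. Tbata and Ctsl were near 250 to 330 CPM in most thymic tuft libraries (Ctsl 210 in library 4), Enpep was high in the intestinal groups, Ly75 overlapped between the groups, with thymic libraries 1 and 2 above all others, and Prss16 was low in thymic library 2.

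Psmb11 encodes beta5t, the thymoproteasome subunit that in mouse is found in cortical thymic epithelial cells, and is the member most restricted to them. The gene (ENSMUSG00000072423) lies on the plus strand of chromosome 14, 54621433 to 54629556, with a longest coding sequence of 906 bases. Its counts were low. Thymic tuft libraries 1 to 4 held 204, 76, 48 and 216 counts, SI tuft libraries 2 to 4 held 7, 0 and 0 counts, and all 3 SI epithelium libraries held 0. In TMM-scaled CPM the thymic tuft libraries were at 3.36, 1.43, 0.694 and 4.11, against 0.170, 0 and 0 in SI tuft and 0 in SI epithelium libraries. Every thymic library was above every intestinal one, and the thymic libraries differed among themselves by up to 5.92-fold. The gene passed the low-count filter through the thymic group alone, so it had to differ. Pooled over libraries, its CPM without TMM was 71.7-fold higher in thymic than in SI tuft cells (95% exact interval 34.6 to 179, counting error only). The edgeR quasi-likelihood test gave a log2 fold change of 5.32 (SE 1.59, Benjamini-Hochberg adjusted p = 0.0180). That call was lost without SI tuft library 3 (adjusted p = 0.0564) or 4 (0.0554), and without library 2, which holds all 7 SI tuft counts, the log2 fold change was 9.98. Against SI epithelium, at 0 counts, the pooled level was 196-fold that of a floor of 3 counts over the group (edgeR adjusted p = 0.00292). The 95% exact interval of the fold began at 159, counting error only. The counts estimated to be shared from the partner libraries were 0.281, 0.457 and 1.22 in SI epithelium, where 0 were found.

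The window of 250 bases upstream of Psmb11 is shown in part because it holds GACGC, the core that the thymic epithelial factor FOXN1 binds, at 239 and at 62 bases before the RefSeq start. Both matches are on the minus strand and so read as GCGTC, in capitals, in these plus-strand stretches of GRCm38.p6 from RefSeq, at chr14:54625061-54625085 and chr14:54625238-54625262. The RefSeq start lies inside the GENCODE gene given above, whose other transcript begins further upstream and has an exon over both stretches.
Psmb11 distal: ctgacaggtgGCGTCttcagagtgt
Psmb11 proximal: cttctccacaGCGTCctcctcctcc
GACGC or its complement was found in 22.6% of 32851 such windows, so a match is common. Of the 7 members 5 have a window; Prss16 and Il7 do not. Besides Psmb11, only Enpep held GACGC, and Ly75, Tbata and Ctsl held none on either strand. The Ctsl window, chr13:64370521-64370770, lies wholly inside the annotated gene, and the Ly75 window overlaps the start of its gene. Bases before the annotated start of Ctsl were thus not searched.

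The other catalytic subunits belong to the constitutive proteasome and the immunoproteasome. Of 7 subunits, Psmb11 included, 2 were higher and 2 lower in thymic than in SI tuft cells (median log2 fold change -0.20). Calls were about as frequent among all genes (28.5% higher and 23.1% lower, median 0.12). Psmb9, the immunoproteasome subunit beta1i, was at 67.6, 117, 75.2 and 116 CPM in thymic tuft libraries, against 41.1, 45.5 and 51.0 CPM in SI tuft libraries (log2 fold change 1.03, SE 0.23, edgeR adjusted p = 0.00233). The groups did not overlap. Psmb10 (beta2i) and Psmb6 (the constitutive beta1) were lower by edgeR, at log2 fold changes of -1.77 (SE 0.34, adjusted p = 0.000942) and -1.17 (SE 0.20, adjusted p = 0.000501). Psmb5, which encodes the constitutive counterpart of beta5t, had a log2 fold change of -0.44 (SE 0.46, edgeR adjusted p = 0.447), and Psmb8 (beta5i) one of 0.02 (SE 0.19, adjusted p = 0.939). Psmb7 (beta2) did not pass either, at -0.20 (SE 0.21, edgeR adjusted p = 0.452). Against SI epithelium Psmb9 and Psmb8 were higher, by 1.81 (SE 0.23, edgeR adjusted p = 4.52e-05) and 1.35 (SE 0.20, adjusted p = 0.000144). Psmb10 (-1.28, SE 0.34, adjusted p = 0.00729), Psmb6 (-0.57) and Psmb7 (-0.54) were lower there by edgeR. Psmb6 and Psmb7 against SI epithelium kept their calls in 7 and 3 of 18 alternatives, with adjusted p up to 0.0896 and 0.200 when 1 library was left out, and turned to 0.051 and 0.076 with library totals in place of TMM. Library totals also ended the calls of Psmb6 against SI tuft cells (-0.26, edgeR adjusted p = 0.319) and of Psmb10 against SI epithelium (-0.67, adjusted p = 0.107). Between SI tuft cells and SI epithelium Psmb8 and Psmb9 were higher, by 1.33 (SE 0.21, edgeR adjusted p = 0.000652) and 0.77 (SE 0.24, adjusted p = 0.0340). The Psmb9 call was lost without any 1 of the SI libraries (adjusted p = 0.0531 to 0.125) and with library totals (0.153). Per length, Psmb11 was at 2.27 ± 1.52 TPM, which also scales by exon length, in thymic tuft cells, where Psmb5 was at 56.8 ± 37.5 TPM and Psmb8 at 144 ± 32.3 TPM (SD, n = 4).

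**Figure D2:**
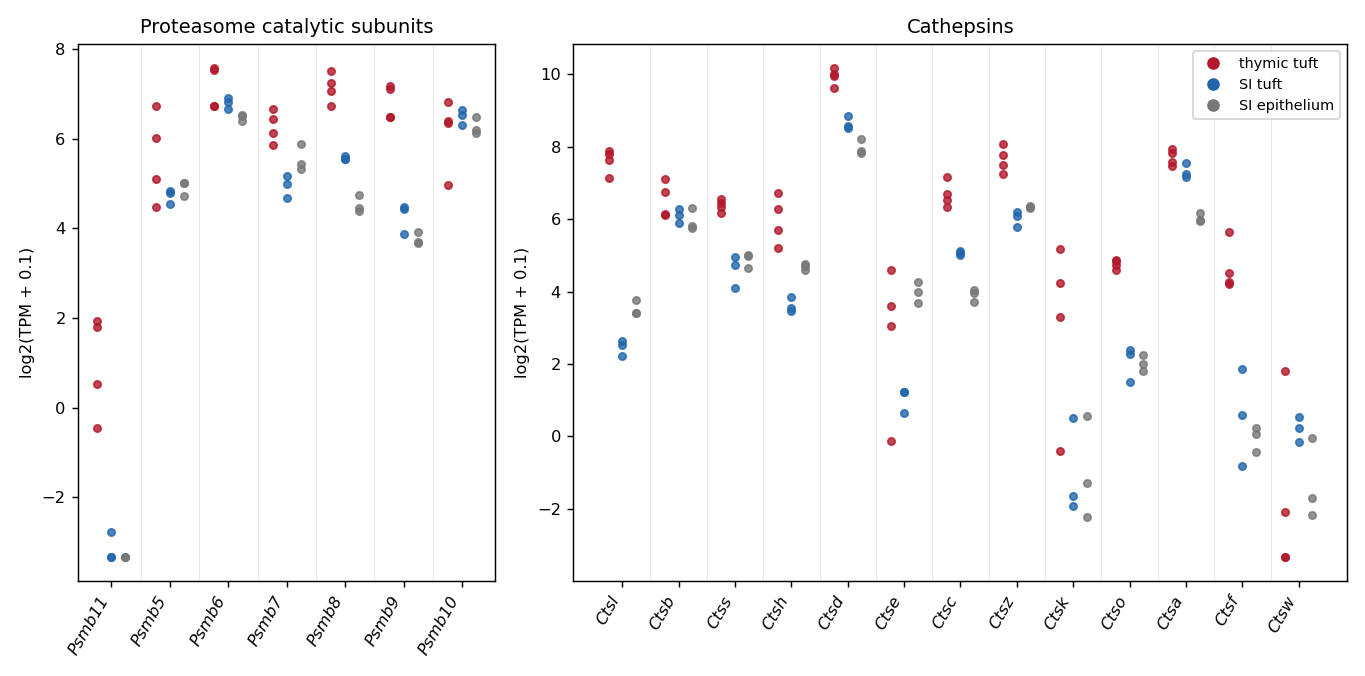
Levels per length, log2 of TPM plus 0.1, of the catalytic proteasome subunits and of the cathepsins; each point is 1 library and colours mark the groups. Psmb11 lay below every other subunit in every library, and Ctsl was higher in each thymic tuft library than in each intestinal library.

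Prss16, Ctsl and their families cover the class II side of peptide generation. Prss16 encodes the thymus-specific serine protease of cortical epithelium (ENSMUSG00000006179, minus strand of chromosome 13, 22002173 to 22009742). It was at 29.9, 3.11, 37.0 and 26.5 CPM in thymic tuft libraries 1 to 4, against 1.26, 1.01 and 2.82 CPM in SI tuft and 0.941, 0.488 and 0.257 CPM in SI epithelium libraries. Thymic library 2 lay far below the other 3 and 11.9-fold below the highest, yet above all SI libraries. The log2 fold change was 3.83 (SE 0.81, edgeR adjusted p = 0.00198) against SI tuft cells and 5.42 (SE 0.89, adjusted p = 0.000307) against SI epithelium. Without thymic library 2 these were 4.21 and 5.81. SI tuft cells and SI epithelium did not overlap either, but the difference of 1.60 (SE 0.79, edgeR adjusted p = 0.174) passed the test only without thymic library 2 (adjusted p = 0.0493). Of the 17, 23 and 50 counts found in SI epithelium libraries 3, 2 and 1, the estimated shared counts were 10.9, 0.991 and 15.0.

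Among the other S28 peptidases, Prcp (prolylcarboxypeptidase) was higher in thymic than in SI tuft cells, by 0.94 (SE 0.23, edgeR adjusted p = 0.00508), and higher than in SI epithelium by 2.18 (SE 0.24, adjusted p = 1.38e-05). It was also higher in SI tuft cells than in their SI epithelium counterparts, by 1.24 (SE 0.25, edgeR adjusted p = 0.00316). Dpp7 did not pass in any comparison. It was at 7.01, 1.17, 8.94 and 5.57 CPM in thymic tuft libraries 1 to 4, so that its lowest thymic value stood in the same library as that of Prss16.

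Ctsl encodes cathepsin L, the lysosomal cysteine protease that in mouse cortical epithelium degrades the invariant chain (ENSMUSG00000021477, minus strand of chromosome 13, 64359337 to 64370890). Thymic tuft libraries were at 320, 285, 330 and 210 CPM, SI tuft libraries at 22.6, 21.3 and 25.0 CPM, and SI epithelium libraries at 38.2, 47.3 and 35.6 CPM. The 3 groups were separate, thymic tuft highest and SI tuft lowest. Ctsl was higher in thymic tuft cells by 3.64 (SE 0.21, edgeR adjusted p = 6.24e-08) against SI tuft cells and by 2.83 (SE 0.20, adjusted p = 2.99e-07) against SI epithelium. Within the intestine it was lower in SI tuft cells, at -0.81 (SE 0.19, edgeR adjusted p = 0.00944), a call lost without SI epithelium library 2 (adjusted p = 0.0542). Exons of Ctsl share 395 bases with the processed pseudogene Gm49230 and 1742 bases with the antisense gene Gm47123. The library kits mark no strand, so reads of the gene and of these neighbours cannot be told apart. Neither neighbour was found among the genes counted, so no counts of theirs can be given.

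Of 13 cathepsins, 4 were higher and 2 lower in thymic than in SI tuft cells (median log2 fold change 0.22). The list was thus called about as often as all genes (28.5% higher and 23.1% lower, median 0.12). Among cathepsins that passed the test at 10 CPM or more, Ctsl and Ctsf had the largest increases. Ctsf was at 20.0, 56.1, 26.1 and 21.3 CPM in thymic tuft libraries, against 1.82, 4.14 and 11.2 CPM in SI tuft libraries (log2 fold change 2.43, SE 0.60, edgeR adjusted p = 0.00523). Ctsa and Ctsb were the lower ones, at -1.18 (SE 0.16, edgeR adjusted p = 5.77e-05) and -1.06 (SE 0.25, adjusted p = 0.00412), and both calls were lost with library totals (-0.28 with adjusted p = 0.138 for Ctsa, -0.17 with adjusted p = 0.584 for Ctsb). Against SI epithelium 5 cathepsins were higher and 1, Ctsb, was lower (adjusted p = 0.0467 by edgeR, lost under most alternatives). Between SI tuft cells and SI epithelium 3 were higher and 2 lower, Ctsa by 1.57 (SE 0.17, edgeR adjusted p = 3.68e-05) and Ctsc by 1.47 (SE 0.24, adjusted p = 0.000821) among the first. Per length, Ctsl was at 200 ± 42.6 TPM in thymic tuft cells (SD, n = 4), where Ctsd was at 988 ± 153 TPM. In SI tuft cells Ctsl was at 5.43 ± 0.826 TPM and Ctsd at 404 ± 48.7 TPM (SD, n = 3). TPM carries no TMM scaling: in TMM-scaled CPM Ctsd was at 407 to 558 in thymic tuft and 546 to 695 in SI tuft libraries (log2 fold change -0.27, SE 0.16, edgeR adjusted p = 0.165). Exons of Ctsa, Ctsb and Ctsd overlap those of neighbours, as do those of Psmb7, Psmb8 and Psmb9 above and of Ifi30, Pla2r1, Il2rg, Dll4, Pax1, Krt5, Ccl25 and Itgam below, which leaves their counts uncertain.

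Of 7 genes for cystatins, the invariant chain and the class II reductase, 3 were higher and 2 lower in thymic than in SI tuft cells. The shares of all genes there were 28.5% higher and 23.1% lower. Cd74, the invariant chain that cathepsins cut, was at 3845 to 6044 CPM in thymic tuft cells, against 7.57 to 39.4 CPM in SI tuft and 27.9 to 38.3 CPM in SI epithelium libraries. Cd74 was higher by 7.91 (SE 0.61, edgeR adjusted p = 6.18e-07) and 7.15 (SE 0.59, adjusted p = 1.08e-06). Its 1735 to 1840 counts in SI epithelium libraries include the partner share given above, where the thymic partners held 220959 to 321674 counts. The level there is therefore uncertain, and over 18 alternatives the second fold ranged from 7.01 to 9.79. Dendritic and B cells express this gene too, and their markers are given below. Cstb, an inhibitor of cysteine cathepsins, was higher in thymic than in SI tuft cells by 1.47 (SE 0.31, edgeR adjusted p = 0.00206), and Cst6, another cystatin, was lower, at -1.84 (SE 0.26, adjusted p = 0.000103). Ifi30, the class II reductase, was the other lower gene, at -0.55 (SE 0.20, edgeR adjusted p = 0.0385), a call lost under most alternatives and turned to 0.38 with library totals. Against SI epithelium 5 of the 7 were higher and 1, Ifi30, was lower. Between SI tuft cells and SI epithelium 2 were higher and 1 lower.

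The surface markers Ly75 and Enpep were not higher in thymic tuft cells by edgeR. Ly75 encodes CD205, an endocytic receptor of cortical epithelium and of dendritic cells (ENSMUSG00000026980, minus strand of chromosome 2, 60292103 to 60383303). Thymic tuft libraries 1 to 4 were at 49.2, 50.4, 21.9 and 20.9 CPM, SI tuft libraries at 23.7, 31.5 and 29.0 CPM, and SI epithelium libraries at 26.4, 27.0 and 21.1 CPM. A pair of thymic libraries lay above all others and the other pair among or below them, so the groups overlapped. The edgeR differences were 0.34 (SE 0.33, adjusted p = 0.414) against SI tuft cells, 0.52 (SE 0.33, adjusted p = 0.215) against SI epithelium, and 0.18 (SE 0.35, adjusted p = 0.772) between the intestinal groups. The result for Ly75 depended on scaling. In CPM without TMM it was at 70.2, 69.1, 29.7 and 27.7 in thymic tuft, 15.6, 24.7 and 22.1 in SI tuft and 23.3, 24.3 and 18.9 in SI epithelium libraries, and the thymic libraries lay above all others. With library totals in place of TMM it was called higher by 1.24 (edgeR adjusted p = 0.0117) and 1.15 (adjusted p = 0.0181), while the median gene moved to 1.02 and 0.77. Relative to the median gene Ly75 was higher by 0.22 against SI tuft cells on both scales, and by 0.37 with TMM and 0.38 with library totals against SI epithelium. An antisense gene, Gm13571, shares 249 exon bases with Ly75 and held 156, 85, 197 and 33 counts in thymic tuft libraries, against 9 to 37 in intestinal ones.

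Of the 4 members of the mannose receptor family, 2 were higher in thymic than in SI tuft cells and 0 lower. Among all genes 28.5% were higher and 23.1% lower there. Mrc1, the macrophage mannose receptor, was at 29.5, 37.2, 27.1 and 22.6 CPM in thymic tuft libraries, against 3.52, 2.89 and 0.370 CPM in SI tuft libraries (log2 fold change 3.68, SE 0.65, edgeR adjusted p = 0.000548). Against SI epithelium it was higher by 4.22 (SE 0.67, adjusted p = 0.000240). Mrc2 was at 0.296, 0, 0.968 and 0.551 CPM in thymic tuft libraries and at 0 in all intestinal ones, near the floor of a library. It passed the low-count filter through the thymic group alone, so it had to differ, and its calls in both comparisons (edgeR adjusted p = 0.0305 and 0.0249) were lost without any 1 library of the intestinal group compared (adjusted p = 0.0784 to 0.0862). Pla2r1 was at 5.64, 0.0754, 2.36 and 0.703 CPM in thymic tuft libraries, against 1.58 to 3.51 CPM in SI tuft libraries.

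Enpep encodes aminopeptidase A, the antigen of the Ly51 antibody used to stain cortical epithelium, and is also a brush border enzyme of the gut (ENSMUSG00000028024, minus strand of chromosome 3, 129269175 to 129332720). It was the member called lower in thymic tuft cells. Thymic tuft libraries were at 10.0, 4.33, 9.58 and 4.79 CPM, against 225, 224 and 249 CPM in SI tuft and 186, 170 and 164 CPM in SI epithelium libraries. Enpep was lower in thymic tuft cells at log2 fold changes of -5.02 (SE 0.30, edgeR adjusted p = 9.09e-08) and -4.59 (SE 0.29, adjusted p = 1.51e-07). Of the 609, 230 and 663 counts in thymic libraries 1, 2 and 3, 93.2, 76.8 and 90.6 were estimated to be shared from SI epithelium. Library 4, for which no share was estimated, held 252 counts. Subtraction left Enpep at -5.16 and -4.76. The intestinal groups did not overlap, but their difference of 0.42 (SE 0.29, edgeR adjusted p = 0.329) passed only when the thymic libraries were left out of the fit (adjusted p = 0.0157).

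The upstream window of Enpep is printed whole because it holds 3 of the 5 motifs searched. Capitals mark, in order, CCAAT on the minus strand (read as ATTGG, 77 bases before the start), TATAAA on the minus strand (read as TTTATA, 52 bases before it) and GACGC on the plus strand (8 bases before it). The stretch is chr3:129332750-129332999 of GRCm38.p6, minus strand, from RefSeq.
Enpep upstream: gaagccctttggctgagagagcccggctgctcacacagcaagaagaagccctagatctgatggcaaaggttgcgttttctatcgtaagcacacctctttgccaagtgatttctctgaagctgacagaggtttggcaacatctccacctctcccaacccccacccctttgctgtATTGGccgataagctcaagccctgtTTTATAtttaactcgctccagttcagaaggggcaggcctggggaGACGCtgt
CCAAT or its complement stood in 33.9% of all windows and TATAAA in 12.4%, and CCAAT was also found in the windows of Psmb11 and Ly75. The octamer ATGCAAAT (1.60% of windows) and GGGCGG (32.7%) were not found in the window of any of the 5 members.

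Of 8 M1 aminopeptidases, 5 were lower and 0 higher in thymic than in SI tuft cells, with a median of -0.70, and 5 lower and 1 higher against SI epithelium. The shares of all genes were 23.1% lower and 28.5% higher in the first comparison, and 22.3% and 28.6% in the second. Anpep, the brush border aminopeptidase N, was at 27.9 to 68.4 CPM in thymic tuft, 4136 to 6591 CPM in SI tuft and 2581 to 3386 CPM in SI epithelium libraries. Its log2 fold changes were -6.61 (SE 0.32, edgeR adjusted p = 2.06e-08) and -5.80 (SE 0.31, adjusted p = 4.13e-08). The whole enterocyte list behaved likewise: 15 of 15 genes were lower in thymic than in SI tuft cells and 14 of 15 lower than in SI epithelium. The summed level of that list was 329.9 to 635 CPM in thymic tuft, 34989 to 39090.0 CPM in SI tuft and 18432 to 19958 CPM in SI epithelium libraries, and its part in the level of Enpep was not tested.

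Il7 encodes interleukin 7, the cytokine on which early thymocytes depend (ENSMUSG00000040329, minus strand of chromosome 3, 7569994 to 7613760). Thymic tuft libraries were at 36.0, 15.2, 27.1 and 33.4 CPM, SI tuft libraries at 1.46, 2.64 and 3.46 CPM, and SI epithelium libraries at 0.433, 0.849 and 1.82 CPM. Every thymic library lay above every intestinal one, and the intestinal groups overlapped. Il7 was higher in thymic tuft cells by 3.47 (SE 0.56, edgeR adjusted p = 0.000284) against SI tuft cells and by 4.75 (SE 0.60, adjusted p = 3.99e-05) against SI epithelium. SI epithelium library 3, the highest of its group, set the second value: without it the log2 fold change was 5.44. The difference of 1.28 (SE 0.54, edgeR adjusted p = 0.117) between SI tuft cells and SI epithelium was called only without that library (1.98, adjusted p = 0.0384). An antisense gene, Gm16685, shares 105 exon bases with Il7 and held 1075, 948, 1179 and 369 counts in thymic tuft libraries, against 0 to 10 counts in intestinal ones. Its counts and those of Il7 cannot be told apart where they overlap. Of the 23, 40 and 120 counts of Il7 in SI epithelium libraries 1, 2 and 3, the estimated shared counts were 11.0, 4.86 and 13.1.

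Of 7 lymphopoietic cytokines and receptor chains, 3 were higher and 1 lower in thymic than in SI tuft cells, and 4 higher and 1 lower against SI epithelium. Among all genes 28.5% were higher and 23.1% lower in the first comparison, and 28.6% and 22.3% in the second. Il2rg, the receptor chain shared with interleukin 7, was at 41.7 to 93.4 CPM in thymic tuft libraries, against 0.370 to 2.02 CPM in SI tuft libraries (log2 fold change 5.71, SE 0.71, edgeR adjusted p = 3.27e-05). T cells express Il2rg as well. Kitl, the stem cell factor gene, was lower in thymic tuft cells, at -2.29 (SE 0.33, edgeR adjusted p = 0.000116) and -3.14 (SE 0.34, adjusted p = 1.00e-05). For SI tuft cells against SI epithelium 1 gene of the list was higher and 0 lower.

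Tbata, also known as Spatial, encodes a protein of thymic epithelium and testis (ENSMUSG00000020096, plus strand of chromosome 10, 61171954 to 61188841). Its log2 fold change against SI tuft cells was the largest of the 7 members. Thymic tuft libraries were at 273, 254, 297 and 251 CPM, SI tuft libraries at 0.729, 0 and 0.106 CPM, and SI epithelium libraries at 1.98, 1.72 and 1.01 CPM. The thymic libraries varied less in Tbata than in any other member (coefficient of variation 7.84%), beside 18.9% for Ctsl, 33.1% for Il7, 42.3% for Enpep, 46.0% for Ly75, 60.9% for Prss16 and 66.7% for Psmb11. Tbata was higher by 9.86 (SE 0.74, edgeR adjusted p = 4.87e-07) against SI tuft cells and by 7.43 (SE 0.64, adjusted p = 1.54e-06) against SI epithelium, where the counts found were no larger than those estimated to be shared, as given below. Without SI tuft library 2, which held 30 of the 34 SI tuft counts, the first value was 12.22. No match to the 5 motifs was found in its window, shown here as far as the start of the annotated gene, chr10:61171714-61171953 of GRCm38.p6, plus strand, from RefSeq, for comparison with the windows above.
Tbata upstream: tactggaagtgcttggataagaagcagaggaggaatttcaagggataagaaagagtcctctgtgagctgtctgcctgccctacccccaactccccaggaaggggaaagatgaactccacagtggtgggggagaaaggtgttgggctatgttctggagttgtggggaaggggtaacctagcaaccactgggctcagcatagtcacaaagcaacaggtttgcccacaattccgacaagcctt

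Between the intestinal groups Tbata was called lower in SI tuft cells (log2 fold change -2.43, SE 0.65, edgeR adjusted p = 0.0182). SI epithelium libraries 1, 2 and 3 held 105, 81 and 67 counts, and the counts estimated to be shared from their thymic partners were 120, 81.1 and 99.6. Tbata was not among the genes used to estimate the shares. Subtraction left 0 counts in each of these libraries, because each estimate was at least as large as the count found. No direction or size of this difference, and no fold of thymic tuft cells over SI epithelium, can then be read. The call was also lost without SI epithelium library 1 (adjusted p = 0.0662) or 2 (0.0538), without SI tuft library 4 (0.0751) and when the thymic libraries were left out of the fit (0.101). Without SI tuft library 2 the value was -4.81. For Ctsl, with 2030 to 2354 counts in SI epithelium, the estimated shared counts were 91.0 to 133, and for Ly75, with 1271 to 1404 counts, they were 8.89 to 18.0. The plot of found against estimated counts shows Tbata near the line of equality.

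**Figure D3:**
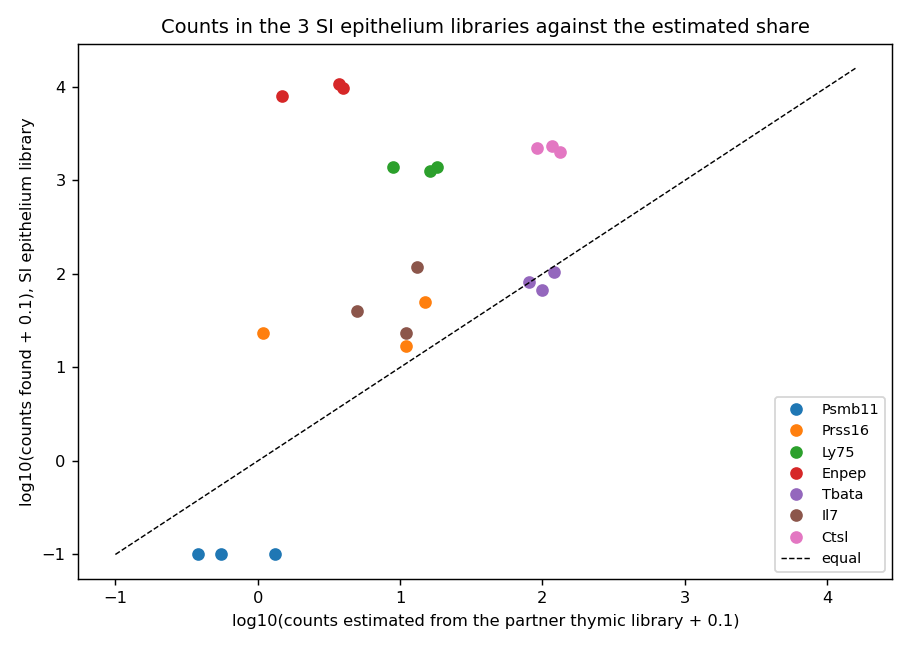
Counts found in the 3 SI epithelium libraries against the counts estimated to be shared from each library's partner thymic library, both as log10 of the value plus 0.1; each point is 1 gene in 1 library and the dashed line marks equality. Tbata lies near the line, Enpep, Ly75 and Ctsl far above it, and Psmb11 below it with 0 counts.

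The order of the members by level per length differed between the groups. The length joins the exons of all transcripts of a gene, 6489 bases for Ctsl, 4791 for Psmb11 and 2426 for Tbata. The order depends on these lengths, and in TMM-scaled CPM the thymic values of Ctsl and Tbata overlapped. In thymic tuft cells Tbata was at 501 ± 46.2 TPM and Ctsl at 200 ± 42.6 TPM (SD, n = 4). Prss16, Ly75 and Il7 followed at 26.0 ± 15.8, 23.6 ± 11.6 and 22.4 ± 7.89 TPM and did not differ beyond their spread. Enpep was at 6.94 ± 3.12 TPM and Psmb11 lowest at 2.27 ± 1.52 TPM. In SI tuft cells Enpep led at 76.1 ± 12.2 TPM, and Ly75 and Ctsl, at 6.34 ± 1.75 and 5.43 ± 0.826 TPM, did not differ beyond their spread (SD, n = 3). In SI epithelium Enpep was at 68.1 ± 2.38 TPM, Ctsl at 11.5 ± 1.73 TPM and Ly75 at 6.64 ± 0.738 TPM. The other 4 members averaged 0.0154 to 0.703 TPM in SI tuft cells and 0 to 1.19 TPM in SI epithelium.

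**Figure D4:**
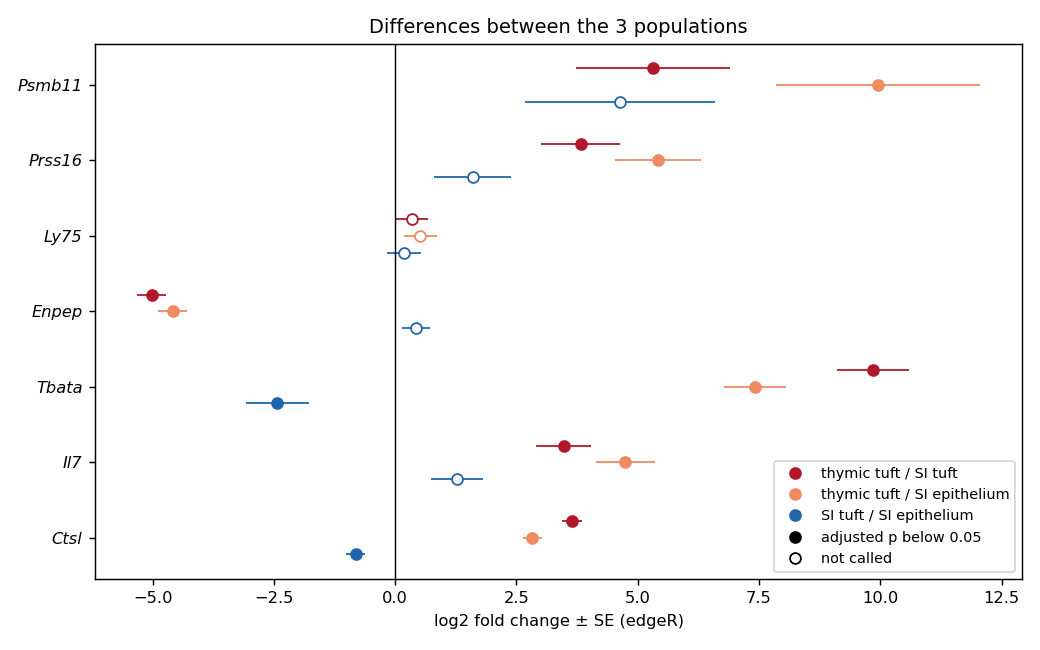
Log2 fold changes of the 7 genes with standard errors from edgeR in the 3 comparisons; filled points passed the test at an adjusted p below 0.05 and open points did not. Psmb11, Prss16, Tbata, Il7 and Ctsl lie to the right and Enpep to the left for thymic tuft cells against both intestinal groups, and Ly75 lies near 0; the SI epithelium value of Psmb11 is a fitted value against 0 counts and is no bound.

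Genes of medullary thymic epithelium, the other thymic compartment, were higher in thymic tuft cells almost throughout. Of 16 medullary genes tested, 15 were higher in thymic than in SI tuft cells, as were 28.5% of all genes. Against SI epithelium 15 were higher too (28.6% of all genes), and 0 were lower in either comparison. SI epithelium values of such thymus-high genes include the partner share given above, which was subtracted only as an alternative. The medullary genes' median log2 fold changes were 9.52 and 7.30, beside 0.12 and 0.15 for all genes. They were the same with the 2 genes at 0 in SI tuft cells set to a floor of 3 counts over that group. Krt5, a keratin of medullary epithelium, was at 565 to 689 CPM in thymic tuft libraries, against 0.0264 to 0.389 CPM in SI tuft and 2.65 to 3.86 CPM in SI epithelium libraries. Krt14, another such keratin, and Cd80, a costimulatory ligand, were at 60.2 to 96.4 CPM and 56.1 to 77.7 CPM in thymic tuft libraries and at 0 in SI tuft libraries. Cd86, also a costimulatory ligand, was higher by 7.65 (SE 1.15, edgeR adjusted p = 0.000163) against SI epithelium. Spib, a transcription factor, was the most abundant of the list at 1048 to 1343 CPM in thymic tuft libraries and was the gene not called against SI tuft cells (log2 fold change 0.15, SE 0.15, edgeR adjusted p = 0.428), though 16 of 16 were higher there with library totals or DESeq2 size factors. The chemokine gene Ccl21a, a marker of another medullary cell type, was at 0 in 3 of 4 thymic libraries and 0.0722 CPM in library 3, and Ccl21b was at 0. For SI tuft cells against SI epithelium 9 of the 16 medullary genes were lower and 1 was higher, but 1 was lower and 4 higher after subtraction of shared counts. In the main fit 11.4% of all genes were lower and 10.9% higher there.

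Of 15 further genes of cortical or general thymic epithelium, 8 were higher and 5 lower in thymic than in SI tuft cells, and 9 higher and 2 lower against SI epithelium. Among all genes 28.5% were higher and 23.1% lower in the first comparison, and 28.6% and 22.3% in the second. Foxn1 and Pax1, transcription factors of thymic epithelium at large, were at 141 to 200.4 CPM and 52.2 to 80.2 CPM in thymic tuft libraries. Both were at most 0.0272 CPM in SI tuft libraries, and at 0.742 to 1.21 CPM and 0.273 to 0.546 CPM in SI epithelium libraries. These SI epithelium values include the partner share. The genes that were lower included Krt18, a keratin that SI tuft cells hold in plenty, at -3.52 (SE 0.16, edgeR adjusted p = 1.58e-08) against SI tuft cells, and Ccl25, a chemokine of thymus and small intestine, at -0.71 (SE 0.19, adjusted p = 0.00898) against SI epithelium, a call lost with library totals (-0.093, adjusted p = 0.721). Dll4, the Notch ligand of cortical epithelium, was at 23.0, 23.1, 1.56 and 44.7 CPM in thymic tuft libraries, against 4.96, 13.1 and 5.46 CPM in SI tuft and 41.7, 50.6 and 41.7 CPM in SI epithelium libraries. It did not pass the edgeR test against SI tuft cells (log2 fold change 1.55, SE 0.75, adjusted p = 0.102). Between SI tuft cells and SI epithelium 3 of the 15 were higher and 8 lower, but 2 lower after subtraction of shared counts and 4 or 5 without any 1 of 5 intestinal libraries.

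**Figure D5:**
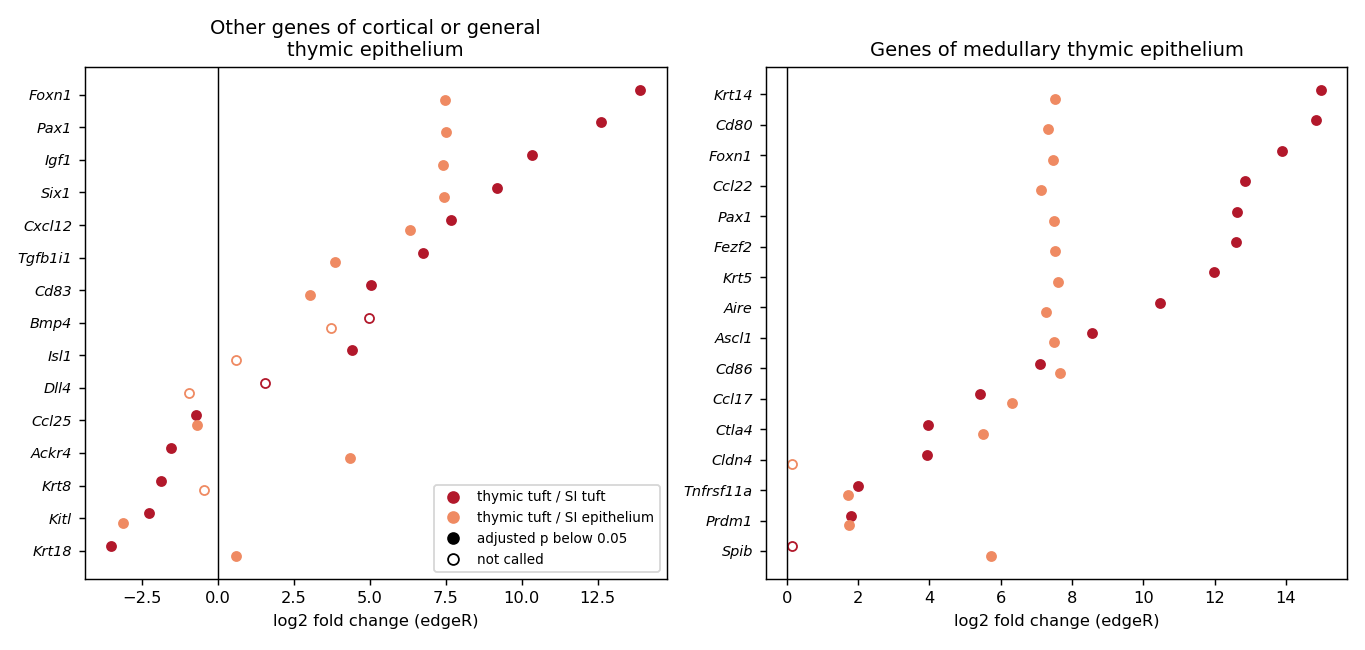
Log2 fold changes from edgeR of further cortical or general thymic epithelium genes (left) and of medullary genes (right) for thymic tuft cells against SI tuft cells and against SI epithelium; filled points passed at an adjusted p below 0.05. Medullary genes lie to the right of 0, whereas the cortical and general genes fall on both sides; Foxn1 and Pax1 are in both lists.

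Tuft cell genes marked the tuft cells of both organs. All 18 tuft cell genes were higher in thymic tuft cells than in SI epithelium, as were 28.6% of all genes. Likewise 18 of 18 were higher in SI tuft cells than there (10.9% of all genes). Il25 is 1 of the 18, and its reporter defined the gates, so its calls against SI epithelium were set by the sort. Against SI tuft cells 15 of the 18 were lower (23.1% of all genes were) and 1, Gnat3, was higher in thymic tuft cells. Of 5 genes for the epithelial gate, 1 was higher and 4 lower against SI tuft cells.

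Lists of markers of other cells were higher in the thymic group to differing extents. Of all genes, 28.5% were higher and 23.1% lower in thymic than in SI tuft cells, and 28.6% were higher than in SI epithelium. Against SI tuft cells, T and B cell genes were called higher about as often as all genes, and B cell sums overlapped. Of 13 thymocyte and T cell genes tested, 3 were higher and 1 lower in thymic than in SI tuft cells, and 8 were higher than in SI epithelium. Their summed level was 87.1 to 121 CPM in thymic tuft, 28.4 to 40.5 CPM in SI tuft and 14.8 to 17.4 CPM in SI epithelium libraries. The most abundant in thymic tuft libraries were Tcf7 at 25.9 to 79.3 CPM and Il2ra at 17.8 to 38.1 CPM, Cd4 was at 1.81 to 9.01 CPM and Rag1 at 0.283 to 8.27 CPM, and 1 of the 15 genes listed, Ptcra, was at 0 in all 4. Of 11 dendritic and myeloid genes 7 were higher and 1 lower than in SI tuft cells, at sums of 226 to 284 CPM, against 14.4 to 46.4 CPM in SI tuft and 13.4 to 19.6 CPM in SI epithelium libraries. Lyz2 at 169 to 210 CPM and Itgam at 12.0 to 64.5 CPM were the most abundant in thymic tuft libraries, and 1 of the 14 genes listed, Clec9a, was at 0 in all 4. Zbtb46, another of the 14, held 1052 to 1501 counts in thymic tuft libraries, against 15 to 70 in intestinal ones. Of 9 fibroblast, pericyte and endothelial genes 8 were higher, at 494 to 1200 CPM, against 3.81 to 4.71 CPM in SI tuft and 6.53 to 8.87 CPM in SI epithelium libraries. Rgs5 at 427 to 1049 CPM and Dcn at 9.10 to 87.9 CPM were the most abundant in thymic tuft libraries. Kcnj8, another of the 12 genes listed, was at 0 in all 10 libraries of the study and so does not inform on the thymic group. Pdgfrb, also listed, held 509 to 1411 counts in thymic tuft libraries, against 22 to 116 in intestinal ones. Of 6 B cell genes 2 were higher and 0 lower, at 135 to 214 CPM in thymic tuft and 167 to 191 CPM in SI tuft libraries, beside 81.1 to 96.0 CPM in SI epithelium libraries. Blnk led this list, at 107 of the 135 CPM in thymic library 2, and held 6139 to 7683 counts in SI tuft libraries. The overlap of the B cell sums thus rests largely on Blnk. Cd79b was next in thymic tuft libraries. It was higher by 3.29 (SE 0.53, edgeR adjusted p = 0.000296) against SI tuft cells and by 4.69 (SE 0.58, adjusted p = 3.15e-05) against SI epithelium. The part of these other cells in the levels of Ctsl, Ly75, Il7, Cd74, Il2rg and Mrc1, which some of them express, was not tested.

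The genes most like each member over the 10 libraries, by Pearson's r of log2 CPM, are given as a description, since the points share 3 groups. For Tbata they were Trp63, Sfrp1, H2-Aa, Zfp750 and Aox4 (r of 0.997 to 0.998). For Ctsl they were led by Synpo2, Ptger3 and Aire. For Enpep they were St3gal4, Agmo, Ace, Iqgap2 and Clca4b (r of 0.996 to 0.997). For Psmb11 they were led by Colec12, Procr and Igsf10, for Prss16 by Efemp1, Trim30b and Phyhip, and for Il7 by Tmem131l, Herc1 and Fbxw11. Ly75 had the weakest matches, Zfyve16, Slc30a3, Pou2f2, Arhgap45 and Gapdhs (r of 0.903 to 0.922).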

How the data were processed

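The deposited files give whole-number gene counts per library, which the authors made with STAR on GRCm38, per the submitters' processing notes; those notes also name DESeq2. Versions and counting settings are not given in the sources used here. Per the labels, poly(A) RNA was amplified with NuGEN Ovation V2 and made into libraries with Nextera XT, without strand marks. The design text says that the authors dropped 1 library of each intestinal population for quality.

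Symbols came from GENCODE M21 (42548 of 43432 identifiers matched). Genes passing filterByExpr (minimum count 10, total 15) numbered 19281. The edgeR quasi-likelihood test (edgeR 4.0.16, R 4.3.3) was fitted on TMM-scaled counts of all 10 libraries, with 1 mean per group, and adjusted by Benjamini-Hochberg over all genes (call below 0.05). SE is the absolute log2 fold change over the square root of F. TPM used the exon length of the annotation, joined over all transcripts of a gene, so ratios of TPM between genes depend on transcripts that may not be expressed. Shared counts between partner libraries were estimated as the median ratio over restricted genes. Replicates are separate mice. Same-numbered libraries showed little common deviation (correlations -0.0445 to 0.0747), so the main fit did not pair them. With so few libraries these values cannot exclude a shared mouse or batch. No replicate pair agreed within counting noise (chi-square per degree of freedom 39.9 to 228).

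The members and lists were chosen with earlier results of these data known. Genes named from other lists are up to 2 each way per comparison with the largest changes at 10 CPM or more, all proteasome, S28 and mannose receptor genes, and the most abundant 2 of lists for other cell types. Ctsd, Ccl21a, Ccl21b, Rag1, Cd4, Ptcra, Clec9a, Zbtb46, Kcnj8 and Pdgfrb were chosen after their values were seen. Alternatives were DESeq2 1.42.0 (test and size factors), other filters, fits of 2 groups, a replicate block, subtraction of shared counts, removal of each library and, chosen after seeing the data, library totals. The procedure was tested on simulated data.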

Additional observations from a re-analysis of the deposited data

Results flagged for a closer look

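Within the 4 thymic tuft libraries 1 library stood apart from the other 3 for 4 of 66 genes examined, where chance flags about 1 in 20. Ctsf was at 56.1 CPM in library 2, Isl1 at 30.8 CPM in library 1, Cldn7 at 61.2 CPM in library 1, and Cd3e at 4.90 CPM in library 3. None of the 7 cortical epithelium genes met the same criterion; the gap of Prss16 in library 2 took 0.689 of the range.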

How the results depend on the processing

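Over 18 alternatives, the 14 thymic results of the members gave 250 values, of which 246 kept their direction and side of the threshold; the other 4 were the lost Psmb11 calls and the gained Ly75 calls given above. Against SI tuft cells 4 to 6 members were higher and against SI epithelium 4 to 6, with 1 lower in each. For SI tuft cells against SI epithelium 1 member was higher and 1 lower with only these groups in the fit and after subtraction of shared counts, and 1 was lower with the replicate block; leaving out a library gave 0 to 1 higher and 0 to 2 lower. Genes higher and lower there numbered 3475 and 3513 with only these groups, beside 2101 and 2199, and 1462 to 2516 and 1426 to 2754 when a library was left out (1426 without SI epithelium 1, 1432 without SI epithelium 2). The filter of 10 CPM left 3289 genes higher in thymic than in SI tuft cells and 3536 higher than in SI epithelium, as fewer genes were tested. With library totals the split for thymic against SI tuft cells was 8822 higher and 2003 lower, beside 5492 and 4453 with TMM; against SI epithelium it was 7565 and 2460, beside 5514 and 4297; and for SI tuft cells against SI epithelium 1537 and 3238. Library totals moved the median gene to 1.02, 0.77 and -0.38 in these comparisons, and DESeq2 size factors to 0.36, 0.38 and -0.11. With library totals Ly75 turned to -0.091 in SI tuft cells against SI epithelium, Psmb6 and Psmb7 to 0.051 and 0.076 in thymic tuft cells against SI epithelium, and Ifi30 to 0.38 against SI tuft cells. In SI tuft cells against SI epithelium the fitted value of Tbata was 6.87 after subtraction, which set all 3 SI epithelium libraries to 0 and is no measured reversal, and Psmb11 ranged from 0, without SI tuft library 2, to 5.24, without library 3 or 4; the cause of the other turns was not tested. With the replicate block 4767 and 4172, 4889 and 4092, and 1637 and 1565 genes were higher and lower in the 3 comparisons; Ctsl in SI tuft cells against SI epithelium lost its call there (adjusted p = 0.0662 by edgeR), as did Psmb9 (0.58, adjusted p = 0.138), and no call of a member in the thymic comparisons changed; of 57 calls of other named genes 10 were lost with the block. The DESeq2 Wald test gave 6662 and 3854, 6716 and 3731, and 2569 and 2953. Depth limits Psmb11, at 0 to 7 counts in intestinal libraries.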
